A study of Homo sapiens with 6 samples.

Results

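The inhibitors of apoptosis (IAPs) and the genes that oppose them were compared between U251 cells, an established human glioma line, carrying a short hairpin RNA against CPVL (shCPVL) and U251 cells carrying a negative control hairpin (shCtrl). The 7 genes were XIAP, BIRC2, BIRC3 and BIRC6, which encode IAPs, and XAF1, DIABLO and HTRA2, which encode their antagonists. They were found by their Entrez identifier, and every probe set that the authors' table assigns to one of these identifiers alone was taken, which gave 27 of the 49293 probe sets tested. Counted as genes, they were 7 of 18837. No probe set was shared between one of the 7 genes and another gene by its identifiers.

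The hairpins were delivered by lentivirus, and each group held 3 arrays. The labels name 1 hairpin type per group and do not say whether the arrays came from separate cultures or from cloned cells, so p-values here measure array-to-array spread alone, and that spread may be technical. CPVL, which encodes a serine carboxypeptidase, served as the check of the labels. It read 8.27 ± 0.11 on the log2 scale in shCtrl (SD, n = 3) and fell to 7.28 ± 0.09 with the shCPVL hairpin (SD, n = 3; limma adjusted p = 8.3e-05), so a part of the transcript remained in the knockdown. Of 7 astroglial and glioma markers, VIM and NES were bright in both groups, and 0 rose. GFAP, FABP7, GJA1 and SLC1A3 were lower in shCPVL (GFAP by −1.01, limma adjusted p = 4.4e-05). S100B, at 7.47 in shCtrl, differed by −0.12, NES by −0.11 and VIM by 0.05, and these did not pass. The 5 microglia and macrophage markers spanned 3.41 to 7.03 in shCtrl, with PTPRC at the lowest value, and the 4 endothelial markers spanned 4.60 to 7.22. By limma 0 of these 9 passed; at an unadjusted p under 0.05, 1 of the 5 (CD68) and 0 of the 4 did. The part of the lower astroglial markers in the results was not tested. RNA added to each sample as a hybridisation control read higher in shCPVL on all 18 of its probe sets, by 0.31 on average (0.16 to 0.41). That difference is as large as several of the changes reported here, and its part in them was not tested.

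Apoptosis ends in the activation of caspases, proteases that dismantle the cell. XIAP binds active caspases directly and blocks them. BIRC2 and BIRC3 (cIAP1 and cIAP2) are ubiquitin ligases of the tumour necrosis factor (TNF) receptor complex, where they favour survival signalling through NF-kB and keep the non-canonical branch of NF-kB silent. When mitochondria are permeabilised they release DIABLO (also called Smac) and the protease HTRA2, whose processed amino termini occupy the caspase-binding pockets of IAPs. XAF1 is an interferon-inducible protein that binds XIAP and counteracts it.

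The promoters of the 2 genes with the greatest changes, XAF1 and BIRC3, are shown because interferon regulatory factors are known to drive the first and NF-kB the second. The sequences are RefSeq windows of build GRCh38.p14 that run from 250 bases before to 50 bases after an annotated start, on the plus strand. In XAF1, capitals mark matches on either strand to AANNGAAA, the core bound by interferon regulatory factors. In BIRC3, capitals mark matches on either strand to GGGNNNNNCC, a loose form of the NF-kB element.
XAF1, chr17:6755796-6756095: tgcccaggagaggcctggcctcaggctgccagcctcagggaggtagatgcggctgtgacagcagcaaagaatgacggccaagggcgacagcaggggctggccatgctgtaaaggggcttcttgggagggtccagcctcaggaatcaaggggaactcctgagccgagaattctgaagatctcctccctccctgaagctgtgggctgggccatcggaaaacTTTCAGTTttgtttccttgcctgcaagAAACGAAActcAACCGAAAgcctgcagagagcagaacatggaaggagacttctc
BIRC3, chr11:102317234-102317533: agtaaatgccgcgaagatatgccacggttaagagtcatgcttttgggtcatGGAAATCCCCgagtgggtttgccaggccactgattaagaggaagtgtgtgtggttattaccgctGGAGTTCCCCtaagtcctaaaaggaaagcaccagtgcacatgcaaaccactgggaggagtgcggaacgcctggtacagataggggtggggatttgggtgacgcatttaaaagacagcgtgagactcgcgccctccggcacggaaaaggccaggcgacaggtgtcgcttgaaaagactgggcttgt

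The XAF1 window held 3 matches to the interferon regulatory factor core, with first bases at −31 (on the reverse strand), −4 and 8 from the start. Of 35116 promoter windows in the RefSeq table, 22.8% held at least 1 match and 1.25% held 3 or more. The other XAF1 window held 1 match, BIRC3 held 1 and 1 of the 4 DIABLO windows held 1, while the windows of XIAP, BIRC2, BIRC6 and HTRA2 held 0. The BIRC3 window held 2 matches to the NF-kB element, starting at −199 and −135. At least 1 such match was present in 58.7% of all windows and at least 2 in 36.7%, so matches to this element were common. It had a match in at least 1 window of all 7 genes, and 5 in the XAF1 window printed here, so it did not set BIRC3 apart. A match describes letters in a window and shows no binding.

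Of the 27 probe sets, 15 rose and 4 fell in shCPVL and 8 did not pass, at an adjusted p under 0.05 in limma with Benjamini-Hochberg adjustment over all probe sets. Over the whole array 18.5% of probe sets passed, 7.93% as higher and 10.6% as lower. In 24 of the 27 the 2 groups were fully separated, against 35% of all probe sets. In bulk RNA such as this, fewer cells of one kind and less RNA per cell cannot be told apart. The median log2 change was 0.22 over the 27 and −0.01 over all probe sets. Probe sets of the same gene are not independent readings, so genes with more of them weigh more in these counts. When a 1.5-fold change was required as well, 6 were higher, 3 of XAF1 and 3 of BIRC3, and 0 lower. The same rule passed 2.5% of all probe sets (1.2% higher, 1.3% lower). Of the 6, the 3 of XAF1 and 11722851_at of BIRC3 lay in shCtrl below the means of the array's background probe sets. With each gene at its brightest probe set, XAF1, BIRC3 and DIABLO rose, HTRA2 fell, and XIAP, BIRC2 and BIRC6 did not pass. Of all genes 19.9% were called, 8.38% higher and 11.5% lower. The groups were apart in 6 of the 7 genes and in 35.7% of all genes. The median log2 change was 0.17 over the 7 genes and −0.01 over all genes. With the 1.5-fold rule BIRC3 alone of the 7 passed at its brightest probe set, as did 2.5% of all genes (1.21% higher, 1.28% lower). XAF1 also passed that fold when its probe sets were averaged (0.85) or summarised by their median (1.32). Both summaries take in its probe sets that lay below the background means in shCtrl, while its brightest rose by 0.42. Whether XAF1 passes thus depends on these dim probe sets. Changes are log2 differences, shCPVL minus shCtrl, and a value after ± is the SD of 3 arrays; SE is the standard error of a change.

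**Figure D1:**
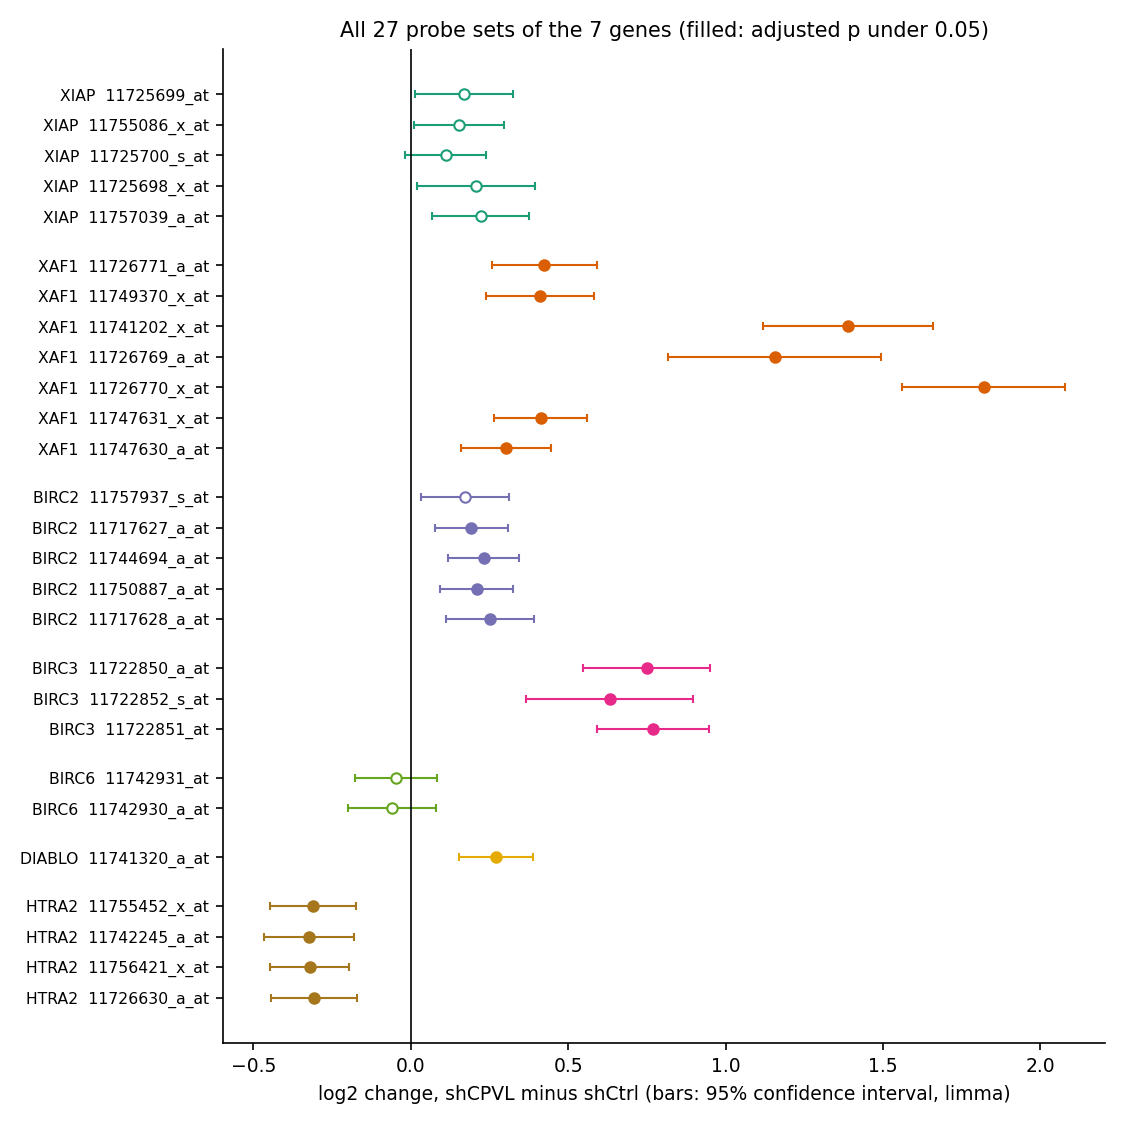
Log2 change (shCPVL minus shCtrl, x axis) of each of the 27 probe sets, grouped by gene from XIAP at the top to HTRA2 at the bottom. Points are limma estimates, bars are 95% confidence intervals, and filled points passed an adjusted p of 0.05. The 7 XAF1 probe sets spread from 0.30 to 1.82, whereas the 4 HTRA2 probe sets lie within −0.32 to −0.31.

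XIAP, the most direct caspase inhibitor of the family, was slightly higher on all of its 5 probe sets, and 0 of them passed the limma test. Its brightest probe set, 11725699_at, read 10.75, 10.67 and 10.81 in shCtrl replicates 1 to 3 and 11.03, 10.88 and 10.83 in shCPVL. The groups did not overlap, but the lowest shCPVL value was only just above the highest shCtrl value. The difference was 0.17 (95% confidence interval 0.01 to 0.33, adjusted p = 0.14). Over the 5 probe sets the differences ran from 0.11 to 0.22 and the adjusted p from 0.053 to 0.23, and the groups overlapped on 1, 11725698_x_at. At an unadjusted p under 0.05, 4 of the 5 passed, and the authors' deposited table puts 2 below an FDR of 0.05. Without shCPVL replicate 3, 11757039_a_at passed (0.27). The interval of the brightest probe set leaves room for a rise of up to 1.25-fold. The authors place its target on the plus strand of chromosome X from 122993876 to 123047822, in a build that their table does not name.

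XAF1, the antagonist of XIAP, rose on all of its 7 probe sets, by amounts that differed widely between them. The probe set with the largest change, 11726770_x_at, read 3.66, 3.24 and 3.52 in shCtrl and 5.38, 5.14 and 5.37 in shCPVL. All shCPVL arrays lay far above all shCtrl arrays. The difference was 1.82 (SE 0.11, 95% confidence interval 1.56 to 2.08, adjusted p = 2.0e-05). Probe set 11741202_x_at rose by 1.39 (SE 0.12) from 4.11 ± 0.20 and 11726769_a_at by 1.16 (SE 0.15) from 4.15 ± 0.33.

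The brightest XAF1 probe set, 11726771_a_at, moved less. Its values were 5.94, 5.82 and 5.99 in shCtrl and 6.22, 6.43 and 6.37 in shCPVL. These groups did not overlap either, and the difference was 0.42 (SE 0.07, adjusted p = 0.0044). The other 3 were 11749370_x_at, 11747631_x_at and 11747630_a_at, which rose by 0.41, 0.41 and 0.30, with adjusted p up to 0.011. The measured log2 differences thus ran from 0.30 to 1.82 over the 7 probe sets, all in the same direction, but for the dim ones they are not exact sizes of change.

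The split of the XAF1 probe sets was compared with the position the authors give for each target on the plus strand of chromosome 17. The 3 with changes above 1 all belonged to the 4 whose target ends at 6678962, and the fourth of these was the brightest, with 0.42. The 3 whose targets end at 6676488 or 6676501 changed by 0.30 to 0.41. In shCtrl 5 of the 7 probe sets lay at or near the 23 background probe sets of the array, whose medians were 3.51 to 3.65 and whose means were 4.84 to 4.98. These were the 3 with the large changes, at 3.47 to 4.15, and 2 with small ones, 11747631_x_at at 3.61 and 11747630_a_at at 3.16. The part of low signal in the split was not tested. No fold is printed for these 5 probe sets, but the count at 1.5-fold above includes the 3 with the large changes. The 2 probe sets above the background means in shCtrl, 11726771_a_at and 11749370_x_at, rose by 0.42 and 0.41. The suffix x marks probe sets that may also read other transcripts, and 4 of the 7 carried it, 2 of those with a large change and 2 without.

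**Figure D2:**
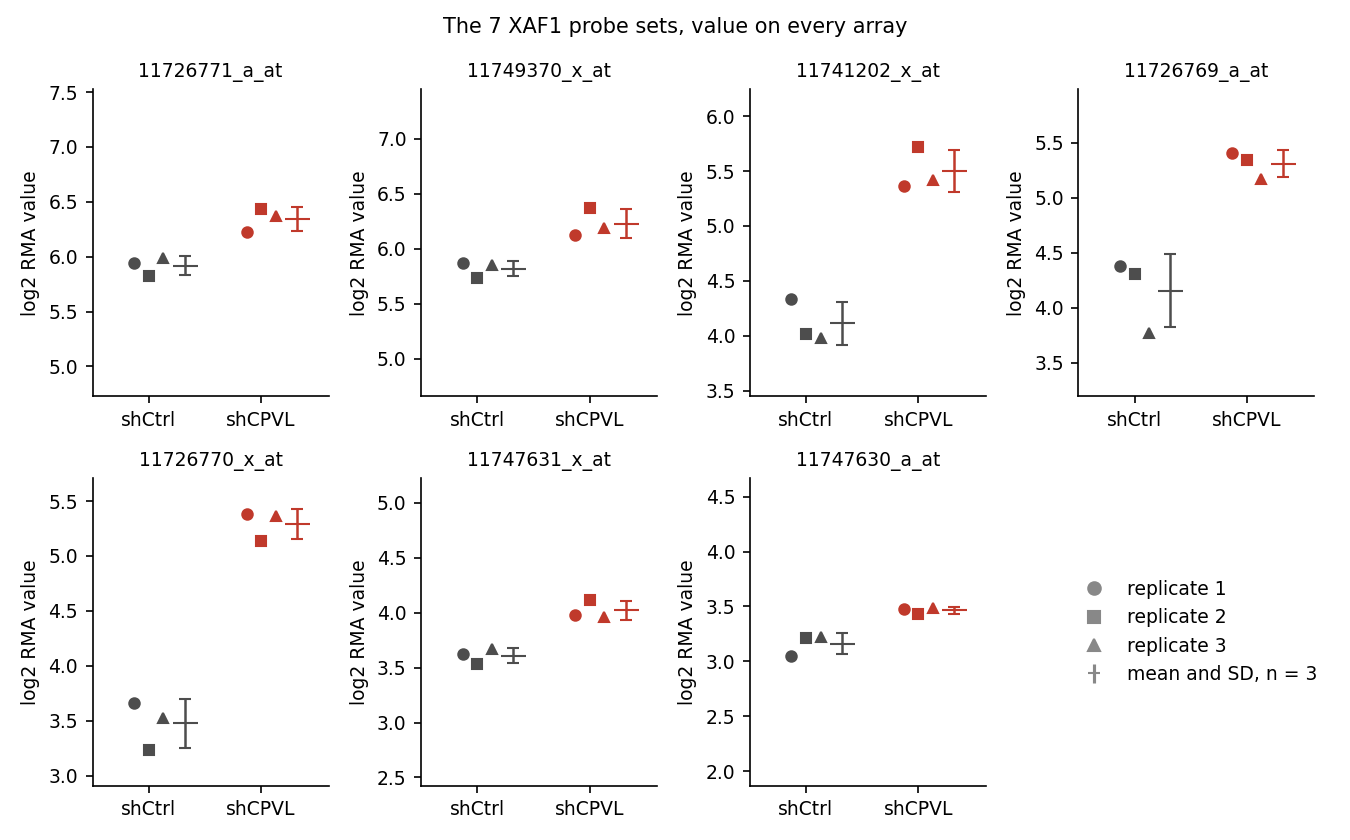
Log2 RMA value (y axis, the same span of 2.8 in every panel but a different start) of the 7 XAF1 probe sets on each of the 6 arrays, with the mean and SD of each group beside the points. The shCPVL arrays lie above the shCtrl arrays in all 7 panels, with the widest gap for 11726770_x_at (3.47 to 5.29) and the narrowest for 11747630_a_at (3.16 to 3.46).

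BIRC3 had the largest change of the 4 IAP genes. Its brightest probe set, 11722850_a_at, read 5.47, 5.54 and 5.39 in shCtrl and 6.41, 6.14 and 6.09 in shCPVL. All shCPVL arrays were above all shCtrl arrays, with replicate 1 of shCPVL the highest. The difference was 0.75 (SE 0.09, adjusted p = 0.00069), a 1.68-fold rise with a 95% confidence interval of 1.46 to 1.93. Probe sets 11722851_at and 11722852_s_at rose by 0.77 (SE 0.08) and 0.63 (SE 0.12). All 3 share one target on the plus strand of chromosome 11, from 102188127 to 102209250 in the authors' unnamed build. BIRC3 was dim, and 11722851_at lay at 4.13 ± 0.11 in shCtrl, below the means of the background probe sets.

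BIRC2, which encodes the closest relative of the BIRC3 protein, moved in the same direction by less. Probe set 11744694_a_at read 10.49, 10.45 and 10.50 in shCtrl and 10.73, 10.71 and 10.70 in shCPVL, with no overlap and little spread in either group. The difference was 0.23 (SE 0.05, adjusted p = 0.012), a 1.17-fold rise. Of the 5 BIRC2 probe sets, 4 rose, by 0.19 to 0.25. The exception was the brightest, 11757937_s_at, which read 10.99, 11.09 and 10.97 in shCtrl and 11.28, 11.17 and 11.13 in shCPVL. Its groups did not overlap, but its difference of 0.17 did not pass (adjusted p = 0.093). The 4 calls depended on single arrays, although all 4 held without shCPVL replicate 3. Without shCtrl replicate 1 none of the 4 held, without shCtrl replicate 3, shCPVL replicate 1 or shCPVL replicate 2 only 1 held in each case, and without shCtrl replicate 2 there were 2. In these 6 removals the differences of the 4 ranged over 0.18 to 0.28.

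BIRC3 and BIRC2 are neighbours on chromosome 11, and their difference in response was compared within each array. Taking the log2 value of BIRC3 minus that of BIRC2, with the shCtrl mean set to 0, the 3 shCPVL arrays stood at 0.69, 0.52 and 0.52 and the 3 shCtrl arrays at 0.03, 0.00 and −0.03. At their brightest probe sets the change of BIRC3 exceeded that of BIRC2 by 0.58, in 3 of 3 arrays. With 3 arrays a group, p = 0.1 is the lowest value an exact two-sided permutation test can reach; it was reached here, and stayed 0.1 after adjustment over the 3 pairs of genes compared. The measured genes that flank them, named after their values were seen, went the other way. YAP1, the transcriptional coactivator of the Hippo pathway, lies next to BIRC3 and fell by 0.98 (SE 0.08, limma adjusted p = 0.00015), and TMEM123, next to BIRC2, fell by 0.20 (SE 0.05, adjusted p = 0.023). Beside the other 5 genes, THOC2 next to XIAP rose by 0.27 and VPS33A next to DIABLO by 0.40, and the other 8 measured neighbours did not pass.

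BIRC6, a very large IAP that is itself a ubiquitin-conjugating enzyme, showed no change that could be detected. Probe set 11742931_at read 8.17, 8.15 and 8.03 in shCtrl and 8.06, 8.09 and 8.07 in shCPVL, and the groups overlapped. The difference was −0.05 (95% confidence interval −0.18 to 0.08, adjusted p = 0.67). The other probe set, 11742930_a_at, gave −0.06 (−0.20 to 0.08), again with overlap. By limma 0 of these 2 passed, also at an unadjusted p under 0.05, and neither did in the authors' deposited table. UBA6, the ubiquitin-activating enzyme that charges BIRC6, fell by 0.19 (SE 0.05, adjusted p = 0.027), a call lost with the mean of its probe sets (−0.13) and without any 1 array other than shCPVL replicate 1 (−0.22 to −0.17 over all 6 removals).

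**Figure D3:**
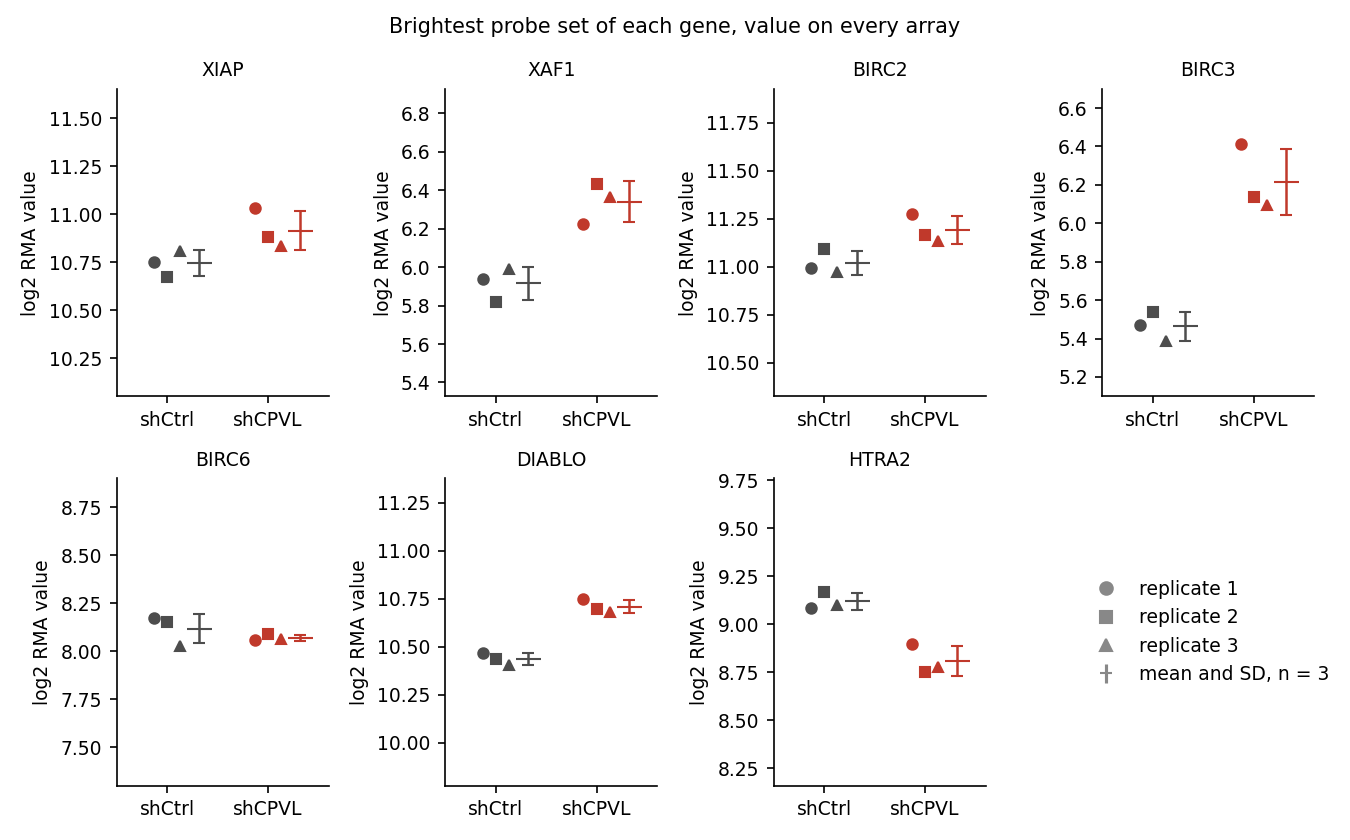
Log2 RMA value (y axis, a span of 1.6 in every panel but a different start) of the brightest probe set of each of the 7 genes on the 6 arrays, with the mean and SD of each group. BIRC3 shows the widest separation (0.75), BIRC6 overlaps, and HTRA2 is the gene with shCPVL below shCtrl on every array.

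The mitochondrial antagonists moved in opposite directions. DIABLO, represented by the single probe set 11741320_a_at on the minus strand of chromosome 12 (122692209 to 122712068), read 10.47, 10.44 and 10.41 in shCtrl and 10.75, 10.70 and 10.68 in shCPVL. Every shCPVL array was higher, and the arrays of a group differed by less than 0.1. The rise was 0.27 (SE 0.05, adjusted p = 0.0071), or 1.21-fold with a 95% confidence interval of 1.11 to 1.31. It has no second probe set as a check.

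HTRA2, the mitochondrial serine protease, fell on all of its 4 probe sets by nearly the same amount. Its brightest, 11755452_x_at, read 9.09, 9.17 and 9.10 in shCtrl and 8.90, 8.75 and 8.78 in shCPVL, with every shCPVL array lower. The change was −0.31 (SE 0.06, adjusted p = 0.0077), and those of the others were −0.32, −0.32 and −0.31, with adjusted p of at most 0.0083. The 4 targets overlap on the plus strand of chromosome 2, between 74756521 and 74760683, and 2 of the probe sets carry the suffix x, so they are not independent readings. Within arrays, the change of DIABLO exceeded that of HTRA2 by 0.58, with 0.53, 0.63 and 0.59 in the shCPVL arrays against 0.06, −0.05 and −0.01 in shCtrl (exact permutation p = 0.1, adjusted 0.1). The same comparison of XAF1 with XIAP at their brightest probe sets gave 0.25, with shCPVL arrays at 0.02, 0.38 and 0.36 and shCtrl arrays at 0.02, −0.02 and 0.01. That difference was close to nil in replicate 1 of shCPVL, although the exact p was again 0.1.

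Other genes of the pathway were read from 5 lists of 45 genes, all measured, of which 6 rose and 6 fell, against 19.9% of all genes called. The median log2 change over the 45 was 0.03, and −0.01 over all genes. Of the IAP genes outside the 7, BIRC5, which encodes survivin, a protein of the mitotic chromosomal passenger complex, fell by 0.62 (SE 0.05, limma adjusted p = 0.00015). BIRC7 (0.03), BIRC8 (−0.08) and NAIP (0.05) did not pass. BIRC8 lay at 4.10 in shCtrl, below the means of the background probe sets.

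In the TNF receptor 1 complex, where BIRC2 and BIRC3 act, 4 of 15 genes rose and 2 fell, with a median of 0.06. OTULIN, which removes linear ubiquitin chains, fell by 0.63 (SE 0.06; −0.17 under median summary of its probe sets), and TNFRSF1A, the receptor itself, fell by 0.44 (SE 0.07), a call lost without the x and s probe sets (−0.07). RNF31, the catalytic subunit of the complex that builds linear ubiquitin chains, rose by 0.33 (SE 0.05). The other 3 that rose, named after their values were seen, were RBCK1, a partner of RNF31 (0.33), TRADD, an adaptor of the receptor (0.22), and CYLD, a deubiquitinase (0.18). The RBCK1 call was lost under median summary (0.11) and without shCtrl replicate 3 (0.28). The CYLD call was lost without any 1 array (0.14 to 0.20), with robust eBayes, without x and s probe sets, and under mean or median summary (0.01). The TRADD call was lost under mean or median summary (0.10) and without any 1 array other than shCtrl replicate 2 or shCPVL replicate 3 (0.19 to 0.24). Without shCtrl replicate 3 the list held 1 higher and 2 lower.

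By limma 0 of 5 genes of the non-canonical NF-kB branch passed, and 2 of 5 did at an unadjusted p under 0.05, as did 5788 of all 18837 genes. MAP3K14, the kinase whose degradation BIRC2 and BIRC3 promote, differed by −0.04. TRAF3, CHUK, NFKB2 and RELB differed by 0.14, −0.16, 0.02 and 0.21, RELB with an adjusted p of 0.066. Of 13 NF-kB target genes, 2 rose and 2 fell, with a median of 0.05. TNFAIP3, whose product (A20) restrains NF-kB in a feedback loop, was higher by 0.99 (SE 0.11, adjusted p = 0.00054; 0.56 without the x and s probe sets), while the chemokine genes CXCL8 and CCL2 fell by 0.60 (SE 0.06) and 0.38 (SE 0.06). NFKBIA, which encodes the inhibitor IkB alpha and is named after its values were seen, rose by 0.35 (SE 0.05; 0.55 without the x and s probe sets). Of 8 genes that control the mitochondrial antagonists or partner with IAPs, 1 fell, UBA6, and 0 rose. PARL, the protease that processes DIABLO, differed by 0.00, and AREL1, a ubiquitin ligase for the released antagonists, by −0.03; both were chosen after their values were seen.

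**Figure D4:**
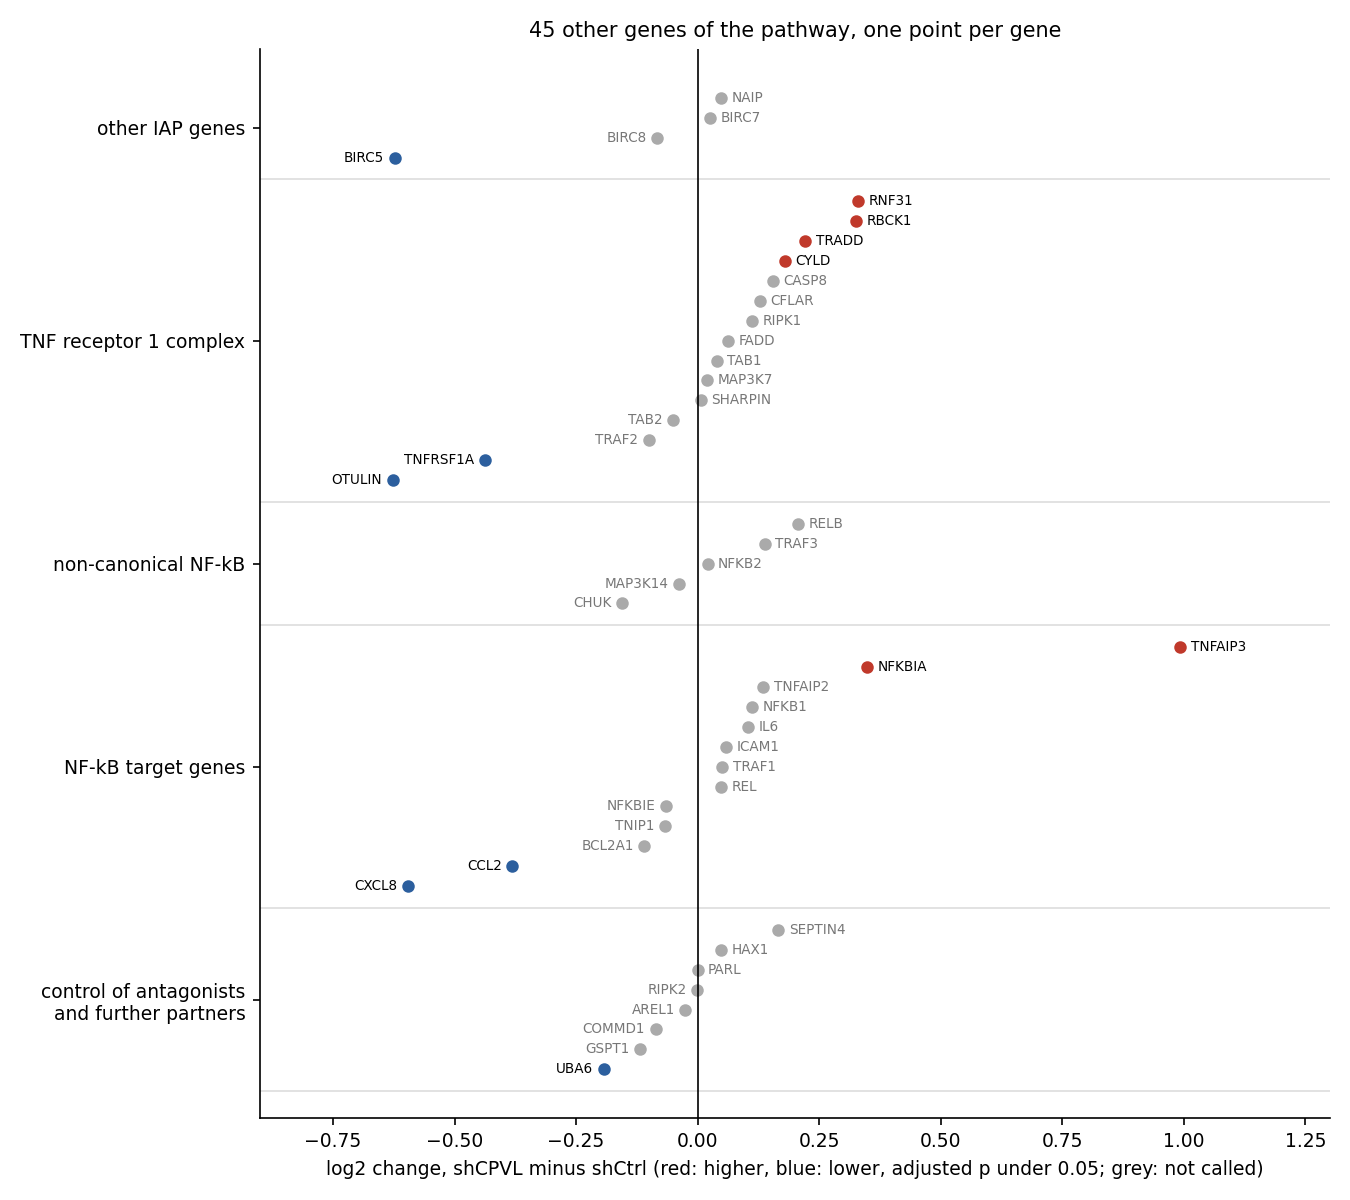
Log2 change (x axis, shCPVL minus shCtrl) of the 45 other genes of the pathway, in 5 lists ordered by change within each list. Red points rose, blue points fell at an adjusted p of 0.05 and grey points did not pass. The extremes are TNFAIP3 at 0.99 and OTULIN at −0.63.

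The genes whose values over the 6 arrays lay closest to those of BIRC3, after the shCtrl mean of each was set to 0, were DHRS2 (Euclidean distance 0.11, change 0.75), RGS20 (0.12, change 0.80) and AGO4 (0.12, change 0.76). The distance is in log2 units over 6 arrays of 2 groups. It depends largely on the size of the change, so nearness here shows no shared regulation.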

How the data were processed

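U251 RNA was extracted with Trizol and labelled with biotin by an Affymetrix 3' in vitro transcription kit, per the labels' protocols. The deposited values are log2 expression values, made by the authors with RMA per the submitters' processing notes (version and build not given in the sources used here). RMA equalises the distributions of the arrays, so a change is relative to the array as a whole. Per the file headers, the authors' second table holds, for each probe set, the log2 fold change with its p-value and FDR, a fold as a linear ratio and a signed score of the fold, beside Entrez identifiers and alignments. Its log2 changes equalled the differences of group means.

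Symbols came from a RefSeq gene table (GRCh38.p14) by Entrez identifier, and promoter windows from RefSeq of that build. Coordinates of targets are the authors' and those of promoters are GRCh38.p14, so they cannot be compared. Of 49395 probe sets, 102 were controls. Fits used limma 3.58.1 in R 4.3.3 (lmFit, eBayes, two-sided) on 49293 probe sets and on 18837 genes, each at the probe set with the highest mean among those with exactly 1 identifier. No filter on low values was set. Benjamini-Hochberg adjustment ran over each whole table. "Rose" and "fell" mean an adjusted p under 0.05. Values of single probe sets of the 7 genes come from the first fit, and those of other genes from the second. The fits were tested on simulated data.

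The 7 genes, the lists and the tests were chosen with earlier results of these data known. A further list of pathway genes is not reported here. From each list up to 3 called genes were named, lists of 5 or fewer whole, and for a gene of the 7 past the fold of 1.5 the 3 nearest genes. The arrays had medians of 6.85 to 6.87, and no 2 held identical values. Precision is limited by having 3 arrays a group.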

Additional observations from a re-analysis of the deposited data

How the results depend on the processing

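The directions of the 7 genes, of their 27 probe sets and of the 12 list genes that passed were the same under every alternative computed for them (list genes that did not pass were not recomputed singly): repeated quantile normalization, median centring, the replicate number as a block, eBayes with a trend, robust eBayes, array weights, removal of the dimmest 40%, removal of each array, and for genes the mean or median of probe sets or removal of x and s probe sets. The authors' own FDR called 22 of the 27 probe sets and 11799 of all 49293. The calls of XAF1, BIRC3, DIABLO and HTRA2 held under each alternative in which the gene was tested; XAF1 and BIRC3 were removed with the dimmest 40%, which left 10 called of 16 probe sets. The change of XAF1 was 0.85 under mean and 1.32 under median summary of probe sets. Both summaries take in probe sets that lay below the background means in shCtrl. BIRC2 passed as a gene with repeated quantile normalization (0.19), trend (0.17), array weights (0.17), the dimmest 40% removed (0.17), probe sets summarised by mean (0.21) or median (0.22), and without x and s probe sets (0.19). XIAP passed with trend (0.17) and array weights (0.14). Array weights called 9752 of 18837 genes and 21693 of 49293 probe sets, along with 10 of 15 TNF receptor and 9 of 13 NF-kB target genes. In the fit on probe sets the weights were 3.45 for shCtrl replicate 1 and 4.86 for shCPVL replicate 2. Those of the other arrays were 0.44 to 0.55, so a single array of each group dominated. The non-canonical list had 1 of 5 called as lower with trend and 1 of 5 as higher under mean summary. Without the dimmest 40% it had 1 of 4 as higher. With array weights 3 of 5 were called, 2 higher and 1 lower. The list of UBA6 had 0 to 3 of 8.

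Without single arrays, 15 to 20 of the 27 probe sets and 4 of the 7 genes were called, and the differences ran over 0.38 to 0.48 for XAF1, 0.65 to 0.81 for BIRC3, 0.25 to 0.29 for DIABLO, −0.36 to −0.28 for HTRA2, 0.11 to 0.21 for XIAP, 0.13 to 0.21 for BIRC2 and −0.09 to −0.02 for BIRC6. Over all genes 3746 were called, but 2424 without shCtrl replicate 1 and 2372 without shCPVL replicate 2; over all probe sets 9127, 5889 and 5648. The replicate numbers did not pair the arrays: deviations of equal numbers correlated at −0.25, 0.09 and 0.22, and 2 of 6 arrays correlated best with their own number. With the replicate block 17 of the 27 probe sets and 4 of the 7 genes were called, and 3067 of all genes; it ended the calls of BIRC2 probe sets 11717627_a_at (adjusted p = 0.072) and 11717628_a_at (0.052), of CYLD (0.077) and of UBA6 (0.065). The causes of these shifts were not tested.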
